A study of Homo sapiens with 12 samples.

Results

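Cells of the liver and of the gut epithelium keep their identity through small sets of transcription factors that bind one another's genes and the genes of the mature cell. The mRNAs of 8 such factors were followed here in Huh7 cells, a human hepatocellular carcinoma line: CDX2 and ISX, homeobox factors of the intestinal epithelium, and HNF4A, FOXA1, FOXA2, FOXA3, CEBPA and ONECUT1, which act in liver. They are 8 of the 63677 genes in the count table, found by their symbols, and 7 of the 17092 genes with enough counts to be tested. The factors were selected on measured values: the levels in cells given GO–Rg3–DOX against untreated cells were known when the set was drawn up, so that comparison is given below as a description without a test.

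The samples fall into 4 groups of 3, and all were harvested at 6 h. Untreated Huh7 cells received medium only. GO cells received graphene oxide, a sheet-like carbon nanomaterial, at 400 µg/mL. GO–Rg3 cells received graphene oxide conjugated with ginsenoside Rg3, a compound from ginseng, at 400 µg/mL. GO–Rg3–DOX cells received that conjugate loaded with doxorubicin, an anthracycline that intercalates into DNA and blocks topoisomerase II, at 100 µg/mL. The last group differs from GO–Rg3 in both the drug and the dose of carrier, and the effects of drug and dose cannot be told apart here. Cells given free DOX were not analysed here. Huh7 is 1 tumour line, and nothing in the labels says that the samples of a group came from separate cultures, so the p-values measure the spread between these samples, which may be technical.

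In the adult liver, HNF4A is a nuclear receptor that holds hepatocyte genes active, the FOXA proteins are pioneer factors that open chromatin during endoderm development, CEBPA is a leucine zipper factor of mature hepatocytes, and ONECUT1 (HNF6) is a cut-homeobox factor of liver and pancreas. CDX2 directs intestinal identity and is absent from healthy hepatocytes, and ISX is an intestinal homeobox factor that responds to retinoic acid and represses genes of carotenoid uptake and cleavage. HNF4A and the FOXA factors also act in the gut, where CDX2 shares many target genes with them. These roles are the background for the order of the results, which begin with the gut factors.

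The counts per sample ranged from 27802871 to 38877420. Hepatocyte markers were present in the line: ALB averaged 4140 ± 39 CPM (SD, n = 3) in untreated cells, and the summed level of 28 hepatocyte genes was 27426 to 27588 CPM there. CPM stands for counts scaled to a common library size, after TMM normalization. The summed level of 27 gut epithelial genes was 2165 to 2189 CPM in untreated cells. CDH17 held 604 CPM of it, and 13 of these genes averaged below 1 CPM, among them FABP2, MUC2 and GPA33. Of the hepatocyte genes, 6 averaged below 1 CPM, and AFP alone held 12287 CPM. Transcripts from both lists were thus present, but not those of every gene in them. The markers of other cell types stayed low in every sample, at 13.5 to 26.2 CPM summed over 7 fibroblast genes, 1.12 to 3.85 CPM over 7 blood cell genes and 0.107 to 1.03 CPM over 6 endothelial genes. All 3 of these sums were highest in GO–Rg3–DOX cells. Reads of mitochondrial genes took 12.1% to 24.1% of the counts in GO cells and 12.8% to 19.4% in GO–Rg3–DOX cells, against 5.31% to 6.28% in untreated and 6.89% to 7.42% in GO–Rg3 cells. GO replicate 1 held the highest share and lay farther from its group's mean than any other sample. The log2 fold changes of FOXA2, FOXA3 and ONECUT1 in GO cells are therefore given with and without it. Ratios of reads within a library are averaged with it. The part of mitochondrial reads in the results was not tested.

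In GRCh37, CDX2 lies on chromosome 13 from 28535055 to 28543452 (minus strand), ISX on chromosome 22 from 35462129 to 35483380 (plus strand), HNF4A on chromosome 20 from 42984339 to 43061485 (plus strand) and FOXA1 on chromosome 14 from 38058757 to 38065264 (minus strand). FOXA2 lies on chromosome 20 from 22561636 to 22566093 (minus strand), FOXA3 on chromosome 19 from 46367247 to 46377055 (plus strand), CEBPA on chromosome 19 from 33790840 to 33793440 (minus strand) and ONECUT1 on chromosome 15 from 53047250 to 53083275 (minus strand). CEBPA is a single-exon gene, and the other 7 have between 3 and 16 separate exon blocks. FOXA1 shares 16 exonic bases with TTC6 on the opposite strand. HNF4A contains MIR3646 within its exons on the same strand and HNF4A-AS1 on the opposite strand without shared exonic bases. The long RNAs ENSG00000267580 and ENSG00000267727 cover 659 and 482 of the 2601 exonic bases of CEBPA on the opposite strand, and both were listed at 0 counts. Whether the counting used the strand is not stated in the sources used here, so reads from such shared bases cannot be told apart.

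The windows of 250 bases before the annotated start sites are shown for CDX2, ISX, FOXA1 and HNF4A, because the first 3 of these genes were the lowest of the 7 tested factors relative to untreated cells under GO–Rg3–DOX, and HNF4A is shown with both of its starts, the upstream P2 and the downstream P1. They are RefSeq sequences of GRCh38.p14, 5′ to 3′ on the gene's own strand and ending at the base before the start. Capitals mark matches to the core motifs searched on both strands.
CDX2, chr13:27969316-27969565, minus strand: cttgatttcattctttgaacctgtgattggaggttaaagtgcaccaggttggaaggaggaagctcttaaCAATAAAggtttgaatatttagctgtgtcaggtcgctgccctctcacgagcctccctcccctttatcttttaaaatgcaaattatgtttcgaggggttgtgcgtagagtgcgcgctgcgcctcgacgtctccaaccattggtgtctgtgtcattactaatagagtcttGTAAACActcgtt
ISX, chr22:35065908-35066157, plus strand: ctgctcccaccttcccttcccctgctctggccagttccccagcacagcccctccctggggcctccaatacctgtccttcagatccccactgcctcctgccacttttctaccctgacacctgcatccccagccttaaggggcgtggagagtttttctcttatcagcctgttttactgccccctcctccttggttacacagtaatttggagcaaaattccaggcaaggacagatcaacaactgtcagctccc
FOXA1, chr14:37595250-37595499, minus strand: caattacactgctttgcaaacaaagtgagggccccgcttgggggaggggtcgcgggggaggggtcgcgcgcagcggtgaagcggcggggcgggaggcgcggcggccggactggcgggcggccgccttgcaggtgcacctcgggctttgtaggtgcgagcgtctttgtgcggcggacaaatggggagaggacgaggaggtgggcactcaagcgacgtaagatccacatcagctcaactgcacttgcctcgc
HNF4A upstream start, chr20:44355449-44355698, plus strand: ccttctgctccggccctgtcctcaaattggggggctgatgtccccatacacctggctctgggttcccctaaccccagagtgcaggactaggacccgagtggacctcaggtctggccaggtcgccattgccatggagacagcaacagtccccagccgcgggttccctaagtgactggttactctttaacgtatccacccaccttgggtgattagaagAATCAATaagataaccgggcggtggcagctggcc
HNF4A downstream start, chr20:44400989-44401238, plus strand: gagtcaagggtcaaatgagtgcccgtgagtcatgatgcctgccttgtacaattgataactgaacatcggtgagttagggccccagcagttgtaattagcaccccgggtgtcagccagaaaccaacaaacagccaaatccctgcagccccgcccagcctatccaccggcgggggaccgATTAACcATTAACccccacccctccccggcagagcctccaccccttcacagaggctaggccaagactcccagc

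The CDX2 window held GTAAACA, the reverse complement of the FOXA core TGTTTAC, 13 to 7 bases before the start, and CAATAAA, the reverse complement of the CDX core TTTATNG, 181 to 175 bases before it. The upstream HNF4A window held AATCAAT, the reverse complement of the ONECUT core ATTGATT, 34 to 28 bases before the start. The downstream HNF4A window held ATTAAC, the reverse complement of the HNF1 core GTTAAT, at 73 to 68 and again at 66 to 61 bases before the start. The ISX and FOXA1 windows held none of the 7 patterns searched, and neither did the ONECUT1 window. Among 35116 windows of the same length, 2.98% held the FOXA core, 8.93% the CDX core, 1.98% the ONECUT core and 6.23% the HNF1 core. The HNF4 core CAAAGTCCA (0.325% of windows) and the C/EBP pattern TTGCNNAA (9.05%) matched in none of the factors' windows. The TATA box pattern TATAAA (10.7%) matched 30 to 25 bases before the start in the FOXA3 and CEBPA windows, and in FOXA3 it lay within a match to the CDX core, CTATAAA. Windows were found for 7 of the 8 genes, FOXA2 being the other. These are matches of letters and no measure of binding.

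Levels were divided by the merged length of all annotated exons of a gene, which can exceed the length of the transcripts expressed. Ranks and shares between genes depend on that length. By this measure HNF4A was the most abundant of the factors in untreated cells at 35.7 ± 1.33 CPM per kb of exon (SD, n = 3), and CDX2 followed at 30.1 ± 1.58. ISX was at 20.1 ± 0.56, FOXA3 at 18.7 ± 1.14, FOXA2 at 17.2 ± 0.43 and FOXA1 at 14.1 ± 0.26 CPM per kb. ONECUT1 was lower, at 2.01 ± 0.15, and CEBPA was at 0.0682 ± 0.0403 CPM per kb. The gut factor CDX2 thus stood second only to HNF4A in this liver tumour line. HNF4A was still first in GO–Rg3–DOX cells, at 17.7 ± 2.62 CPM per kb, and FOXA2 was second at 6.89 ± 0.16, ahead of FOXA3 at 2.93 ± 0.27 and CDX2 at 1.79 ± 0.47. ISX (1.52 ± 0.15) and FOXA1 (1.19 ± 0.02) followed, and ONECUT1 was at 0.971 ± 0.101 CPM per kb. In bulk samples, fewer cells that express a gene and less RNA per cell cannot be told apart.

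**Figure D1:**
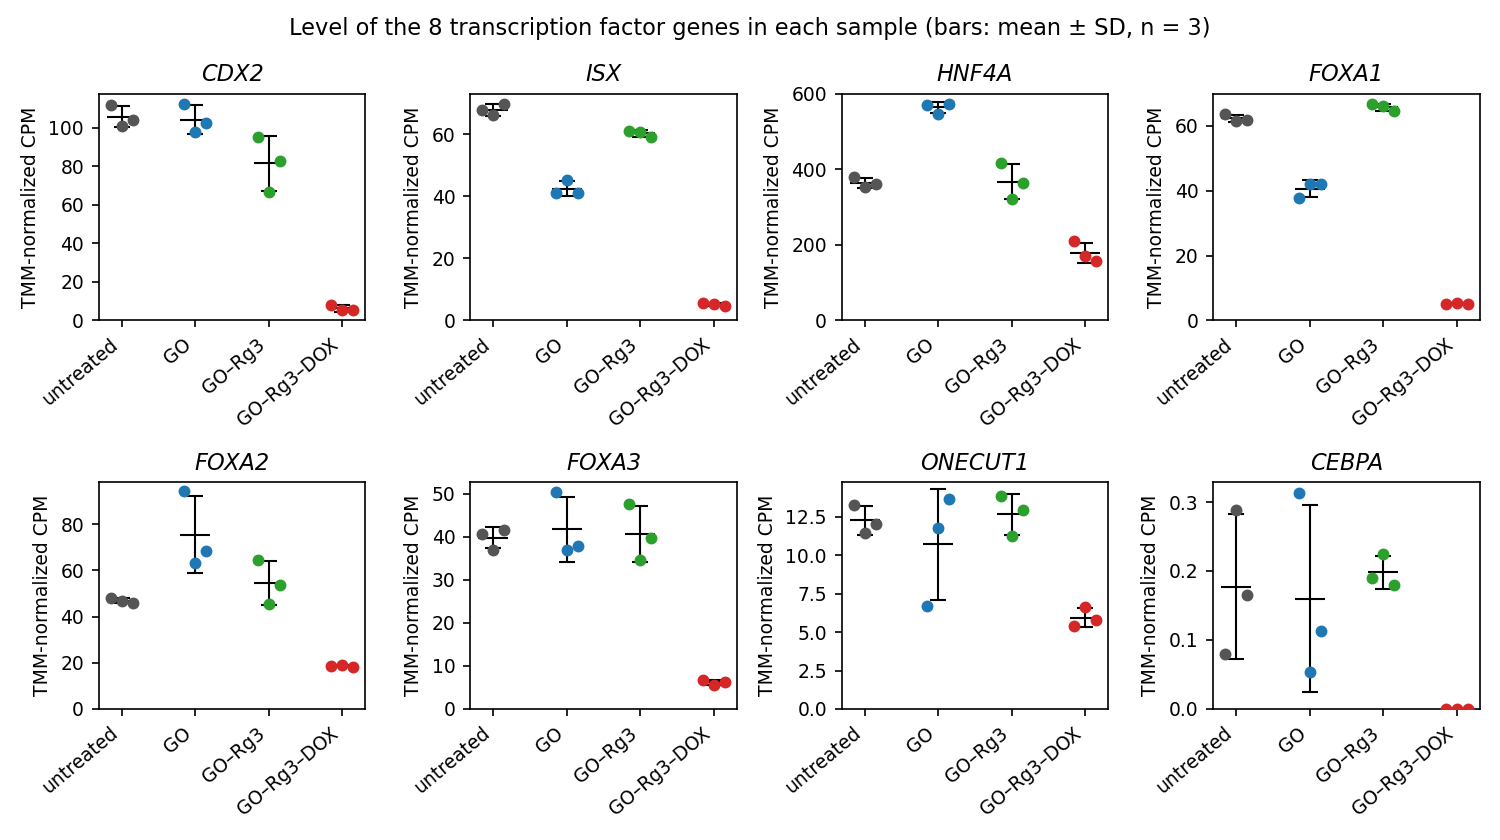
Level of each factor in every sample, as TMM-normalized CPM on a linear axis from 0, by group; points are samples and bars the mean ± SD (n = 3). GO–Rg3–DOX samples lie below the untreated samples for all 8 genes, a comparison that chose the set, so nothing is read from that count. HNF4A reaches 545 to 574 CPM in GO cells, and ISX and FOXA1 sit lower in GO than in untreated cells.

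CDX2 was measured at 111.9, 101.2 and 104.2 CPM in the 3 untreated samples and at 112.4, 97.8 and 102.5 CPM in the GO samples, so these groups overlapped. The GO–Rg3 samples held 95.2, 66.7 and 82.9 CPM and the GO–Rg3–DOX samples 8.20, 5.21 and 5.49 CPM. All 3 GO–Rg3 samples lay below the lowest untreated sample, and the GO–Rg3–DOX samples lay far below all others. The log2 fold change in GO cells was −0.02 (SE 0.15, adjusted p = 0.92, from the quasi-likelihood fit of edgeR across all genes) and that in GO–Rg3 cells −0.37 (SE 0.15, adjusted p = 0.26). In GO–Rg3–DOX cells the log2 fold change was −4.07 (SE 0.17), 16.8-fold lower than in untreated cells and the 22nd lowest of all tested genes.

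ISX was measured at 67.8, 66.0 and 69.8 CPM in untreated cells, at 41.1, 45.2 and 40.9 CPM in GO cells and at 61.0, 60.7 and 59.0 CPM in GO–Rg3 cells. The GO–Rg3–DOX samples held 5.48, 5.39 and 4.54 CPM. The 4 groups did not overlap, in the order untreated, GO–Rg3, GO and GO–Rg3–DOX. ISX was under-expressed in GO cells by edgeR's test, with a log2 fold change of −0.68 (SE 0.09, adjusted p = 6e-05), while the lower level in GO–Rg3 cells did not pass (−0.17, SE 0.09, adjusted p = 0.45). Its value in GO–Rg3–DOX cells was −3.72 (SE 0.11), the 33rd lowest of all tested genes.

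The ratio of CDX2 to ISX reads within a library, which needs no scaling between libraries, was 1.56 ± 0.08 in untreated, 2.47 ± 0.28 in GO, 1.36 ± 0.23 in GO–Rg3 and 1.22 ± 0.27 in GO–Rg3–DOX cells (SD, n = 3). All 3 GO samples, at 2.17 to 2.73, lay above the untreated samples, at 1.49 to 1.65. The range in GO–Rg3–DOX cells, 0.967 to 1.496, met that of untreated cells although both genes were more than 10-fold lower there.

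HNF4A was measured at 378.3, 351.9 and 359.7 CPM in untreated cells, at 571.0, 545.5 and 573.9 CPM in GO cells and at 416.5, 322.5 and 362.7 CPM in GO–Rg3 cells. The GO–Rg3–DOX samples held 209.3, 171.6 and 157.9 CPM. GO cells had the highest level, untreated and GO–Rg3 cells overlapped, and GO–Rg3–DOX cells had the lowest. HNF4A was overexpressed in GO cells, with a log2 fold change of 0.63 (SE 0.11, adjusted p = 0.00056, edgeR), and did not pass in GO–Rg3 cells (0.02, SE 0.11, adjusted p = 0.97). Its log2 fold change in GO–Rg3–DOX cells was −1.02 (SE 0.12).

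FOXA1 was measured at 63.7, 61.5 and 61.8 CPM in untreated cells, at 37.7, 42.1 and 42.2 CPM in GO cells and at 66.7, 66.2 and 64.5 CPM in GO–Rg3 cells. The GO–Rg3–DOX samples held 5.19, 5.32 and 5.22 CPM. FOXA1 was under-expressed in GO cells by edgeR's test (log2 fold change −0.62, SE 0.08, adjusted p = 6.8e-05), and in GO–Rg3 cells its log2 fold change was 0.08 (SE 0.08, adjusted p = 0.75). The value in GO–Rg3–DOX cells was −3.57 (SE 0.10), the 48th lowest of all tested genes.

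FOXA2 was measured at 48.2, 46.5 and 45.9 CPM in untreated cells and at 94.4, 63.2 and 68.4 CPM in GO cells. The GO–Rg3 samples held 64.3, 45.6 and 53.7 CPM and the GO–Rg3–DOX samples 18.7, 19.2 and 18.3 CPM. GO samples were all above the untreated samples, with GO replicate 1 the highest, while GO–Rg3 samples overlapped both. FOXA2 was overexpressed in GO cells (log2 fold change 0.68, SE 0.14, adjusted p = 0.0016, edgeR). With an offset for GC content, an alternative chosen after seeing the data, its log2 fold change was 0.39 (adjusted p = 0.0015), and without GO replicate 1 it was 0.49 and still passed. In GO–Rg3 cells it was 0.22 (SE 0.14, adjusted p = 0.57) and in GO–Rg3–DOX cells −1.32 (SE 0.15).

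FOXA3 was measured at 40.6, 37.02 and 41.7 CPM in untreated cells, at 50.5, 36.996 and 37.8 CPM in GO cells and at 47.6, 34.7 and 39.7 CPM in GO–Rg3 cells. These 3 groups overlapped, and the log2 fold changes of 0.07 in GO (SE 0.14, adjusted p = 0.71, edgeR) and 0.03 in GO–Rg3 cells (SE 0.14, adjusted p = 0.95) were smaller than their errors. The sign in GO cells depended on GO replicate 1, the value without it being −0.09, and on the scaling, the value being −0.07 with library totals alone and −0.24 with the GC offset (adjusted p = 0.028). The GO–Rg3–DOX samples held 6.80, 5.64 and 6.25 CPM, with a log2 fold change of −2.67 (SE 0.15).

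The proportions of the 3 FOXA genes within a library differed between the groups. Of their summed CPM per kb, FOXA2 made up 34.5% ± 0.9 in untreated, 48.7% ± 2.8 in GO, 36.9% ± 1.9 in GO–Rg3 and 62.6% ± 1.8 in GO–Rg3–DOX cells (SD, n = 3). FOXA1 made up 28.2% ± 0.5, 16.7% ± 3.4, 27.8% ± 3.2 and 10.8% ± 0.3 in the same order, and FOXA3 made up 37.3% ± 1.4, 34.7% ± 0.8, 35.3% ± 1.3 and 26.6% ± 2.1. The ratio of FOXA2 to FOXA1 reads was 0.752 ± 0.008 in untreated, 1.88 ± 0.55 in GO, 0.828 ± 0.137 in GO–Rg3 and 3.57 ± 0.05 in GO–Rg3–DOX cells, and the GO range of 1.501 to 2.505 did not overlap that of untreated or GO–Rg3 cells. GO replicate 1 held the highest of the GO ratios, and GO replicates 2 and 3 held 1.501 and 1.622. The FOXA1 share was 12.7% in GO replicate 1 and 19.0% and 18.2% in GO replicates 2 and 3.

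ONECUT1 was measured at 13.3, 11.4 and 12.04 CPM in untreated cells, at 6.70, 11.8 and 13.6 CPM in GO cells and at 13.8, 11.2 and 12.9 CPM in GO–Rg3 cells. GO replicate 1 was the low sample among the GO cells. The log2 fold change in GO cells was −0.19 (SE 0.19, adjusted p = 0.45, edgeR) and was 0.05 without that sample, and that in GO–Rg3 cells was 0.05 (SE 0.19, adjusted p = 0.94). The GO–Rg3–DOX samples held 5.40, 6.61 and 5.80 CPM, with a log2 fold change of −1.04 (SE 0.20).

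CEBPA was near the limit of counting in these libraries, with 3, 9 and 7 counts in the untreated, 8, 2 and 4 in the GO and 7, 7 and 7 in the GO–Rg3 samples. No read was counted in the 3 GO–Rg3–DOX samples. It did not reach 10 counts in at least 3 samples and was left out of the tests. Against a floor of 3 counts over the group, which covers counting error only, its level in GO–Rg3–DOX cells was at least 4.45-fold lower than in untreated cells. Differences among the other groups were not detectable at this depth.

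In the GO comparison, 2 of the 7 tested factors were higher (HNF4A and FOXA2) and 2 lower (ISX and FOXA1) at an adjusted p below 0.01, where 12.1% of all tested genes were higher and 15.4% lower. The untreated samples also entered the comparison that chose the factors. The tests of GO and of GO–Rg3 against untreated cells are therefore not independent of that choice. None of the 4 moved past a log2 fold change of 1 in either direction. Each of these 4 kept its direction and stayed past the threshold when any 1 of the 6 samples was left out and with the GC offset. Across tested genes, GC content and the log2 fold change in GO cells had a Spearman's rho of 0.433, given as a description since genes are not independent. The GC content was 54.9% for HNF4A and 59.1% for FOXA2, against 52.7% for ISX, 50.4% for FOXA1 and a median of 47.8% over tested genes. It was 59.6% for CDX2, 60.1% for FOXA3 and 47.4% for ONECUT1, which did not pass in GO cells. The part of GC content in these values was not tested. The GC offset moved the log2 fold change of CDX2 in GO cells from −0.02 to −0.31 (adjusted p = 0.016). Scaling by library totals alone moved the median of all genes to −0.11 in GO cells, −0.47 in GO–Rg3–DOX cells and 0.12 in GO–Rg3 against GO.

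In GO–Rg3 against untreated cells, no tested factor passed in either direction (edgeR, DESeq2 also 0), and 1 (CDX2, lower) had an unadjusted p below 0.05. Of all tested genes, 0.0585% were higher and 0.105% lower.

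GO–Rg3–DOX was the comparison that chose the set. The log2 fold changes of all 7 tested factors lay below −1, which the choice of the set fixes, and nothing is read from that count. Of all tested genes, 18.2% were called lower, with an adjusted p below 0.01 and a log2 fold change below −1. HNF4A and ONECUT1 were the members just inside the fold threshold, at −1.02 and −1.04, and with DESeq2 they were at −0.94 and −0.98. No tested factor fell just outside it. CDX2, ISX and FOXA1 lay between −4.07 and −3.57 on the log2 scale, and the other 4 between −2.67 and −1.02.

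**Figure D2:**
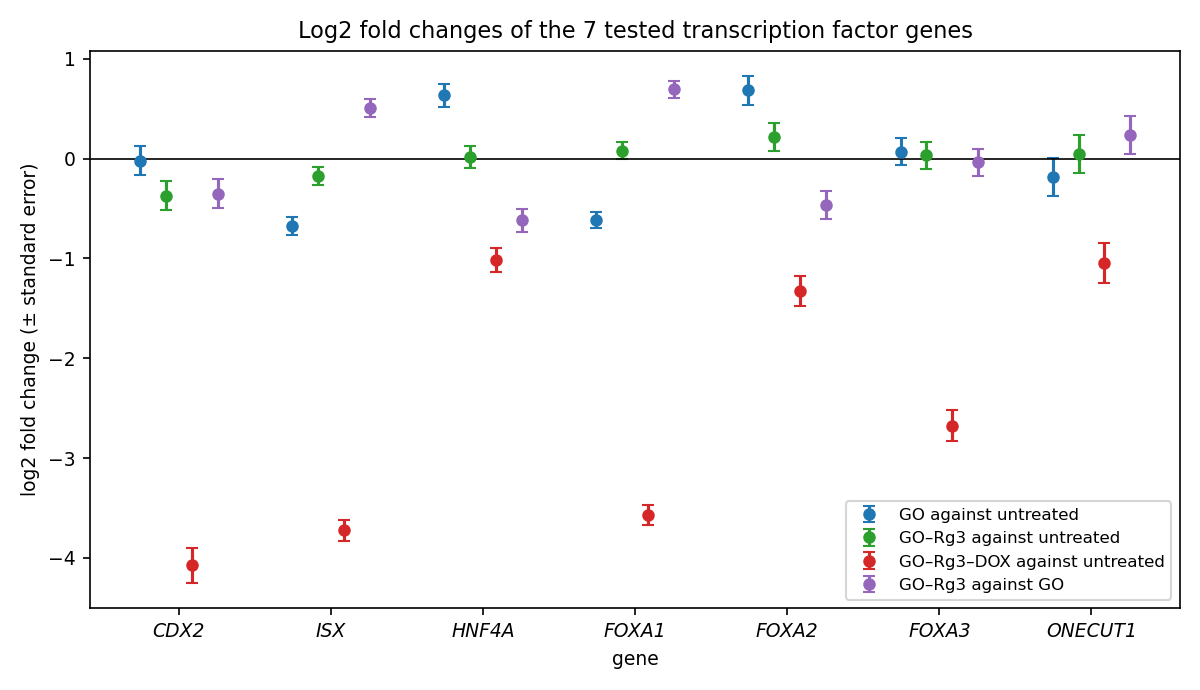
Log2 fold change of the 7 tested factors in 4 comparisons, with the standard error of edgeR's fit as bars; the horizontal line is no change. In GO cells HNF4A and FOXA2 lie near 0.6 to 0.7 and ISX and FOXA1 near −0.6 to −0.7, and in GO–Rg3–DOX cells the values run from −4.07 for CDX2 to −1.02 for HNF4A.

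GO–Rg3 and GO cells received the same 400 µg/mL for the same 6 h. Neither group is part of GO–Rg3–DOX against untreated cells. The factors were chosen with earlier results of these data known, however, so these tests may not be independent of that choice either. FOXA1 was higher in GO–Rg3 than in GO cells, with a log2 fold change of 0.69 (SE 0.08, adjusted p = 6.7e-05, edgeR), and ISX was higher as well, by 0.51 (SE 0.09, adjusted p = 0.0013). HNF4A was lower in GO–Rg3 than in GO cells, by −0.62 (SE 0.11, adjusted p = 0.0015). In all 3 the samples of the groups did not overlap, but neither did those of CDX2, which did not pass. The share of all tested genes without such overlap was not computed, so the 3 are not set apart by it. The 2 higher factors stand beside 7.33% of all tested genes that were higher, and the 1 lower factor beside 6.25% that were lower. FOXA2 (−0.47, SE 0.14, adjusted p = 0.026) and CDX2 (−0.35, SE 0.15, adjusted p = 0.086) did not pass, and FOXA3 (−0.04) and ONECUT1 (0.23) had adjusted p-values of 0.87 and 0.39. When the fit held only the 6 samples compared, ISX (adjusted p = 0.022) and HNF4A (adjusted p = 0.013) no longer passed. FOXA2 passed without GO–Rg3 replicate 1 (−0.60, adjusted p = 0.0066) and HNF4A did not without GO–Rg3 replicate 3 (−0.61, adjusted p = 0.01). ONECUT1 was at −0.01 without GO replicate 1. The comparison shares the GO samples with that of GO against untreated cells, so the opposite signs in those 2 comparisons are not independent.

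**Figure D3:**
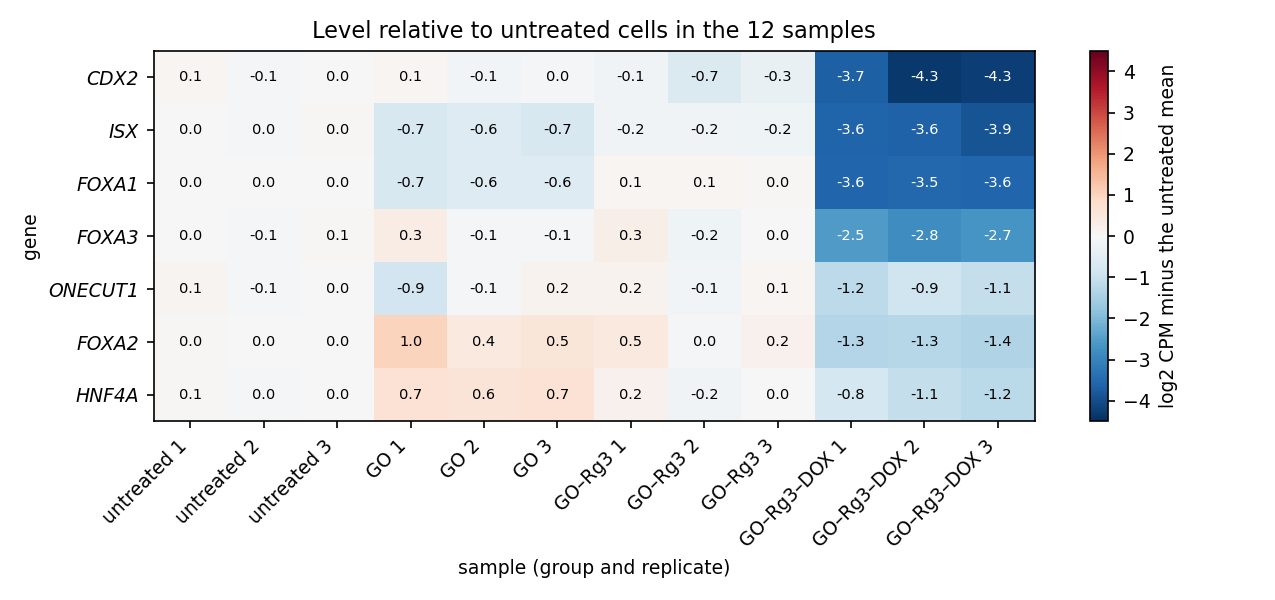
Log2 CPM of the 7 tested factors in each of the 12 samples, minus the mean of the untreated samples; blue is lower, red is higher, and each cell prints its value. The GO–Rg3–DOX columns are blue in every row, which the choice of the set fixes, and darkest for CDX2, ISX and FOXA1. The GO columns are blue for ISX and FOXA1 and red for FOXA2 and HNF4A.

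By the root mean square difference of their centred log2 CPM over the 12 samples, among 13242 tested genes averaging at least 1 CPM, the gene most like ISX was FOXA1 (0.12), followed by the heat shock cochaperone gene DNAJB1 (0.12) and TEX19 (0.18). The 3 most like FOXA1 were DNAJB1 (0.12), ISX (0.12) and ZNF639 (0.17). Those most like CDX2 were ZNF792, CCNJL and RP11-27I1.4, at 0.33 to 0.35. For HNF4A they were NDE1, the mitotic kinase gene PLK1, and APEX2, at 0.09 to 0.10, and for FOXA2 FAM222B, ZC3H4 and TRIM11, at 0.08 to 0.09. FOXA3 was nearest to TNFRSF1A, HDHD3 and GEMIN4 (0.13 to 0.14) and ONECUT1 to ZNF713, ANKRD44 and TCF4 (0.13 to 0.14). HNF4A and FOXA2 differed by 0.23 from each other, and HNF4A and CDX2 by 1.20. The measure rests mainly on the large differences in GO–Rg3–DOX cells and is a description over samples that share their groups.

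The ratio of ISX to FOXA1 reads lay between 0.869 and 1.13 in all 12 libraries, with means of 1.09 ± 0.03 in untreated, 1.04 ± 0.06 in GO, 0.916 ± 0.002 in GO–Rg3 and 0.979 ± 0.098 in GO–Rg3–DOX cells (SD, n = 3). ISX and FOXA1 were picked here for their likeness over these same samples. A steady ratio follows from that choice, and nothing is read from it. The ratio of HNF4A to ISX was 5.35 ± 0.22, 13.3 ± 1.08, 6.09 ± 0.76 and 34.9 ± 3.19 in the same order of groups.

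The long noncoding RNA gene LINC00261, which lies next to FOXA2 on chromosome 20 from 22528301 to 22559280 and does not overlap it, was looked at after the values were seen. It stood at 169 ± 8 CPM in untreated, 204 ± 26 in GO, 185 ± 18 in GO–Rg3 and 58.2 ± 1.9 in GO–Rg3–DOX cells (SD, n = 3). TTC6, which shares 16 exonic bases with FOXA1, was at 7.09 ± 0.28, 3.09 ± 0.53, 6.15 ± 0.95 and 5.23 ± 0.55 CPM in the same order.

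The factors were set beside 20 other liver transcription factors, of which 19 were tested, and 20 other gut factors, of which 13 were tested. These lists were drawn up with earlier results of the data known, so their tests are not independent of that choice. In GO cells 3 liver factors rose and 2 fell (edgeR, adjusted p below 0.01). CEBPD, a C/EBP factor of the acute-phase response, had a log2 fold change of 1.03 (adjusted p = 9.6e-05), PROX1 of 0.64 (0.0016) and the xenobiotic receptor NR1I2 of 0.46 (0.0099). TBX3 fell (−0.96, adjusted p = 8.5e-05) and so did the bile acid receptor NR1H4 (−0.86, 0.00028). Of the gut factors 4 rose, among them TCF7L2 (1.52, adjusted p = 3.8e-08), a mediator of Wnt signalling, SOX9 (1.28, 3.7e-06) and ELF3 (1.04, 7.8e-06), and VDR, the vitamin D receptor, fell (−1.18, 1e-05). The median log2 fold change was 0.14 for the liver and 0.09 for the gut factors, against 0.01 for all tested genes. The 3 of 19 liver factors that rose and 2 that fell stand beside 12.1% of all tested genes higher and 15.4% lower, near that background. The 3 became 1 with library totals alone, without untreated replicate 1 or without GO replicate 3, and 6 with the GC offset, with or without the block. The 1 gut factor that fell became 2 without GO replicate 2, with no filter and with the GC offset and block together, and 3 with the replicate block.

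In GO–Rg3 cells no gene of either list passed against untreated cells by edgeR. At an unadjusted p below 0.05, 6 liver and 3 gut factors differed, and DESeq2 passed 1 and 2. Against GO cells, 7.33% of all tested genes were higher and 6.25% lower in GO–Rg3 cells. Of the 19 tested liver factors 2 were lower, NR1I2 (−0.76, adjusted p = 0.00084) and CEBPD (−0.66, 0.0045). Of the 13 tested gut factors VDR was higher (1.02, adjusted p = 7.8e-05), and 4 were lower, with TCF7L2 at −1.16 (9.3e-07), ELF3 at −0.85 (9.2e-05) and PDX1 at −0.67 (0.0093). Without GO–Rg3 replicate 2 or 3, 1 liver and 2 gut factors were lower; without GO replicate 1, 1 liver factor was, and without GO replicate 3, 2 gut factors were.

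In GO–Rg3–DOX cells 13 of the 19 other liver factors fell and 0 rose (0 also by DESeq2 and at an unadjusted p below 0.05), beside 30.5% of all tested genes lower and 25.5% higher. Their median log2 fold change was −1.15, against −0.06 for all tested genes. Both lists of other factors were drawn up with earlier results known, so the counts and p-values are a description. TBX3 (−2.07, adjusted p = 1.5e-08) and CEBPD (−2.01, 5.3e-08) were the furthest below untreated cells. Of the gut factors 6 fell and 2 rose, with a median of −0.14. PDX1, a pancreatic and duodenal factor, fell by 2.12 on the log2 scale (adjusted p = 3.4e-07), KLF5 by 1.44 (1.9e-08) and TCF7L2 by 1.36 (1.1e-08), while SOX9 rose (0.51, 0.0017). The 2 gut factors that rose became 0 with library totals alone, 4 with no filter and 1 with the GC offset or with 10 counts in every sample. They became 0 without untreated replicate 2 or 3 and 1 without GO–Rg3–DOX replicate 2 or 3.

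Genes of the hepatocyte and gut epithelial lists were mostly higher in GO–Rg3–DOX cells, where 25.5% of all tested genes were higher and 30.5% lower. These 2 lists too were drawn up with earlier results known, so the counts and p-values are a description. AFP, the most abundant gene of the hepatocyte list, did not pass (0.22, adjusted p = 0.25, edgeR). Of 23 tested hepatocyte genes 19 rose and 0 fell (0 also by DESeq2 and at an unadjusted p below 0.05), with a median log2 fold change of 0.86. APOC3, an apolipoprotein gene, rose by 1.66 (adjusted p = 3.1e-06), CPS1 of the urea cycle by 1.29 (9e-07) and AHSG, the gene of fetuin-A, by 1.29 (3e-08). Of 19 tested enterocyte and gut epithelial genes 16 rose and 0 fell (likewise 0 in both other counts), with a median of 0.96. LGALS4 rose by 1.93 (adjusted p = 1.1e-07), APOA4 by 1.56 (8.4e-07) and SCARB1, a lipid transporter gene that ISX is known to repress in the gut, by 1.43 (2e-07). In GO cells, where ISX was lower too, SCARB1 did not pass (0.34, adjusted p = 0.045, edgeR). Whether ISX acted on SCARB1 here was not tested. With library totals alone, 13 hepatocyte and 9 gut epithelial genes rose and again 0 fell. The summed level of the hepatocyte genes was 39474 to 43934 CPM in GO–Rg3–DOX cells and that of the gut genes 3976 to 4298 CPM, both above every untreated sample.

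In GO cells 2 hepatocyte genes rose, PCK1 of gluconeogenesis (1.42, adjusted p = 3.5e-05) and F7, a clotting factor gene (1.01, 6.5e-05), and 5 fell, with AFP at −1.07 (0.00016), ALB at −0.67 (0.0012) and FGG at −0.60 (0.00077). These counts of 23 tested genes are near the 12.1% higher and 15.4% lower among all tested genes, and the list's median log2 fold change was 0.05. With the GC offset, with or without the block, the balance turned to 5 that rose and 3 that fell. Those that rose became 4 with DESeq2 or with 10 counts in every sample, and those that fell became 8 with no filter, 3 without GO replicate 3 or any 1 of the untreated samples, and 7 without GO replicate 1. Of the gut epithelial genes 3 rose, MUC13 (1.07, adjusted p = 2.6e-06), LGALS4 (0.82, 0.002) and ANPEP (0.49, 0.0037), and 0 fell by edgeR, with 2 by DESeq2 and 3 at an unadjusted p below 0.05. The 3 that rose became 1 with library totals alone, with the GC offset or without untreated replicate 2, and 5 with only the 6 samples compared. Those that fell became 1 without GO replicate 1 and with the GC offset and block together, and 3 without GO replicate 2, with the replicate block and with no filter. The summed hepatocyte level was 18399 to 20993 CPM in GO and 21659 to 24905 CPM in GO–Rg3 cells, both below the untreated range; AFP and ALB are the most abundant genes of that list, while SERPINA1, for example, averaged 2017 ± 283 CPM in GO and 1588 ± 38 CPM in untreated cells (SD, n = 3).

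No gene of these 2 lists passed in GO–Rg3 against untreated cells by edgeR or DESeq2, and 7 hepatocyte and 5 gut genes had an unadjusted p below 0.05. Against GO cells, AFP was higher in GO–Rg3 cells (0.71, adjusted p = 0.0059), and PCK1 (−1.82, 1.4e-05), F7 (−0.74, 0.0014) and MUC13 (−0.87, 3.2e-05) were lower. Of all tested genes, 7.33% were higher and 6.25% lower in that comparison. The number of hepatocyte genes that were higher was 0 without GO replicate 1 or 3 or GO–Rg3 replicate 2 or 3, and 2 without GO replicate 2 or GO–Rg3 replicate 1. CLDN18, a claudin gene averaging under 1 CPM and named here after its values were seen, was the 1 gut epithelial gene that was higher (1.53, adjusted p = 0.0052), and none was when any 1 of the 6 samples was left out; 2 were lower without GO–Rg3 replicate 1.

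**Figure D4:**
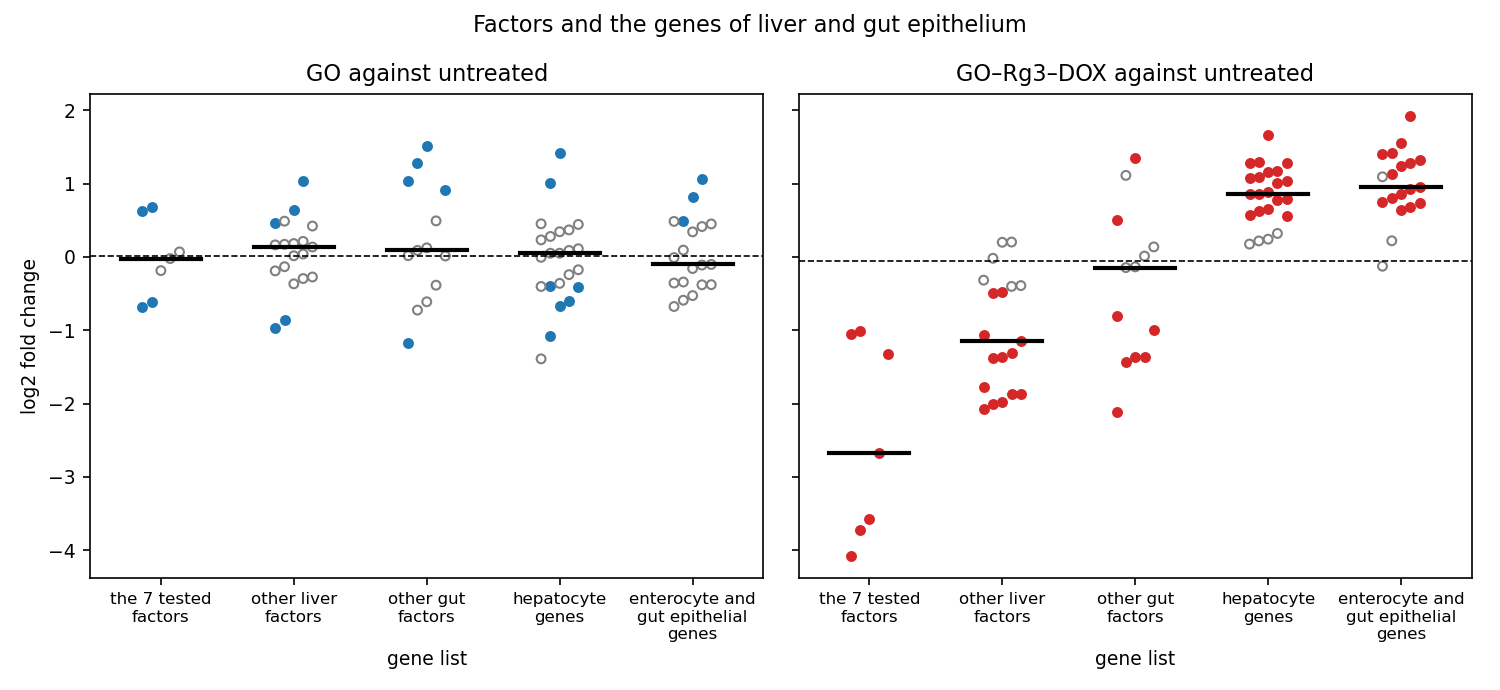
Log2 fold change of each tested gene of 5 lists in GO and in GO–Rg3–DOX against untreated cells; filled points passed an adjusted p of 0.01, open points did not, thick bars are list medians and the dashed line is the median of all tested genes. In GO–Rg3–DOX cells the other liver factors have a median of −1.15 and the other gut factors one of −0.14, while the hepatocyte and gut epithelial genes have medians of 0.86 and 0.96.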

How the data were processed

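RNA of 12 samples of Huh7 cells was sequenced from libraries made with a stranded mRNA kit. The authors ran the NGI-RNAseq pipeline against GRCh37, and featureCounts assigned the reads to Ensembl genes. What they deposited are unnormalized counts of 63677 genes. The annotation release and strand setting are not given in the sources used here. Samples were grouped by their labels.

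The 17092 genes that reached 10 counts in 3 or more samples were scaled by TMM and tested with edgeR 4.0.16 (quasi-likelihood, R 4.3.3) in 1 model of all 12 samples, with Benjamini-Hochberg adjustment over all genes. A gene passed at an adjusted p below 0.01 and was called if its log2 fold change also exceeded 1 in size, as in the study, which used DESeq2. Log2 CPM used a prior count of 2. The fit was tested on simulated data. A lifted GENCODE annotation on GRCh37 gave positions, exon lengths and GC content (for 97.3% of tested genes), and promoter windows from RefSeq on GRCh38.p14.

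The factors and gene lists were chosen with earlier results of these data known. Named are all 8 factors, for each list and comparison the 3 largest rises and falls among genes that passed and averaged at least 1 CPM, the 3 genes most like each tested factor, and genes overlapping a factor; 1 list gene is not reported here. Alternatives were RLE scaling, library totals, no filter (35604 genes), 10 counts in every sample (13706 genes), DESeq2 1.42.0, the replicate block, only the 6 samples compared and each sample left out. An offset for GC content (loess, span 0.5), alone or together with the block, was chosen after seeing the data.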

Additional observations from a re-analysis of the deposited data

How the results depend on the processing

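The counts of factors and of list genes that passed were recomputed 180 times under these alternatives, and 161 stayed within 1.5 times the main count. Of the same counts split by list and direction, 377 of 480 stayed within that range. The cause of the other changes was not tested. In GO–Rg3 against untreated cells, where no list gene passed, 1 passed with library totals alone and with only the 6 samples compared, 2 with either the replicate block or the GC offset, 3 with DESeq2, 4 with the GC offset and the replicate block together, and 6 with no filter on low counts. In GO–Rg3 against GO, where 12 list genes passed, 7 passed with library totals alone, 5 with only the 6 samples compared, 19 with the replicate block and 21 with no filter, and leaving out 1 sample gave 7 to 14, with 7 without GO–Rg3 replicate 2 or 3. The 1 lower factor there became 2 with no filter and with the replicate block, FOXA2 being added (adjusted p = 0.0057 and 0.0058 by edgeR), and 0 with only the 6 samples compared; without 1 sample it ranged from 0 (GO–Rg3 replicate 3) to 2 (GO–Rg3 replicate 1). The 2 higher factors became 1 with only the 6 samples.

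Log2 fold changes near 0, none of which passed, changed sign. FOXA3 in GO against untreated cells was at −0.067 with library totals, −0.243 with the GC offset and −0.246 with the GC offset and the replicate block. In GO–Rg3 against untreated cells it was at −0.0156 with the GC offset and −0.0166 with the block added. In GO–Rg3 against GO it was at 0.126 with library totals, 0.227 with the GC offset and 0.229 with the block added. CDX2 in GO cells was at 0.0069 when 10 counts were required in every sample. Leaving out 1 sample gave −0.077 to 0.0249 for CDX2, −0.0862 to 0.152 for FOXA3 and −0.386 to 0.0524 for ONECUT1 in GO cells. It gave −0.0846 to 0.101 for HNF4A, −0.0958 to 0.134 for FOXA3 and −0.0209 to 0.124 for ONECUT1 in GO–Rg3 cells, and −0.165 to 0.119 for FOXA3 and −0.0053 to 0.438 for ONECUT1 in GO–Rg3 against GO. Of 420 recomputed log2 fold changes of the factors, 393 kept their direction and side of the threshold.

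The groups share replicate numbers, which the labels do not explain. Deviations from the group means correlated at 0.0914 on average (−0.0239 to 0.254, 18 pairs) between samples of the same number and at −0.0451 (36 pairs) between others, so the numbers were not taken to pair the samples. CEBPA was limited by its depth of 0 to 9 counts per sample, and with 3 samples a group no sample was screened as an outlier.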
